A study of Mus musculus with 28 samples.

Results

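The CXC chemokines are small secreted proteins, named for a residue between their first pair of conserved cysteines, that direct leukocyte migration through G-protein-coupled receptors. The genes described here are the 10 mouse members Cxcl1, Cxcl2, Cxcl5, Cxcl9, Cxcl10, Cxcl12, Cxcl13, Cxcl14, Cxcl15 and Cxcl16. They were found by symbol among 35880 gene identifiers, and all 10 matched a single identifier each. Their transcripts were measured by mRNA sequencing of lung homogenates from wild-type male C57BL/6 mice, aged 8 to 12 weeks, in 28 libraries. The 4 exposures were sham air, carbon black (fine particles of nearly pure carbon, 10 mg/m3), ozone (an oxidising gas, 2 ppm), and carbon black together with ozone, called co-exposure below. Each exposure took 3 hours. The day 1 groups had 1 exposure and 4 libraries each, and the day 4 groups had 4 exposures and 3 libraries each. Day and number of exposures changed together and cannot be told apart. The sources used here do not give the delay between the last exposure and collection. Nothing in the labels says that every library is a separate mouse, so p-values describe only how far these libraries spread, which may be technical.

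Chemokines that carry the Glu-Leu-Arg motif before the first cysteines (Cxcl1, Cxcl2, Cxcl5, Cxcl15) attract neutrophils, largely through the receptor Cxcr2, and in the lung they are made by epithelium and macrophages. Cxcl9 and Cxcl10 are induced by interferons and attract activated T cells through Cxcr3. Cxcl12, Cxcl13, Cxcl14 and Cxcl16 are made without a stimulus in many tissues. Cxcl12 acts on Cxcr4, Cxcl13 draws B cells through Cxcr5, and Cxcl16 is a membrane-bound ligand of Cxcr6 that proteases can release.

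Of the 10 genes, 7 lie on chromosome 5 (GRCm38 coordinates, GENCODE annotation). Cxcl5 (90759360 to 90761624), Cxcl15 (90794534 to 90803067), Cxcl1 (90891241 to 90893115) and Cxcl2 (90903871 to 90905938) stand on the plus strand within 146579 bp. Cxcl9 (92321347 to 92328079) and Cxcl10 (92346638 to 92348889) are neighbours on the minus strand, 18558 bp apart. Cxcl13 (95956951 to 95961068) is on the plus strand of the same chromosome. The other three are Cxcl12 on chromosome 6 (117168535 to 117181367, plus strand), Cxcl14 on chromosome 13 (56288643 to 56296551, minus strand) and Cxcl16 on chromosome 11 (70453983 to 70459984, minus strand).

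The sequences before the transcription starts are shown for the neighbours Cxcl1 and Cxcl2 and for the neighbours Cxcl9 and Cxcl10, because these pairs share their position and their inducing signals. RefSeq promoters (GRCm38.p6) were found for 8 of the 10 genes, all but Cxcl5 and Cxcl16. Each sequence gives the 250 bases before the RefSeq start, 5′ to 3′ on the gene's own strand. Capitals mark matches on either strand to a form of the kB motif bound by NF-kB (GGG and TTCC with any 3 bases between) and to the core of the interferon-stimulated response element (GAAA and GAAA with any 2 bases between). The windows are chr5:90890995-90891244 (Cxcl1, plus), chr5:90903649-90903898 (Cxcl2, plus), chr5:92348890-92349139 (Cxcl10, minus) and chr5:92328080-92328329 (Cxcl9, minus).
Cxcl1: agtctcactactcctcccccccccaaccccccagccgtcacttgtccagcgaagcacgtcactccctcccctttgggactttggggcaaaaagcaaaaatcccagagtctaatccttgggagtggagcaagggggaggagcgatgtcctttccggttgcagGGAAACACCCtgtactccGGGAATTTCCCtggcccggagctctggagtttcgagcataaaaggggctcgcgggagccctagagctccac
Cxcl2: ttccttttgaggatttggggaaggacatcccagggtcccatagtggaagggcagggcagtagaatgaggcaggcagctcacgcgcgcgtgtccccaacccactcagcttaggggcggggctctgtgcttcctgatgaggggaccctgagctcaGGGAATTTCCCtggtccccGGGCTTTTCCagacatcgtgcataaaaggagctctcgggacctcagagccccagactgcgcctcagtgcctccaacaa
Cxcl10: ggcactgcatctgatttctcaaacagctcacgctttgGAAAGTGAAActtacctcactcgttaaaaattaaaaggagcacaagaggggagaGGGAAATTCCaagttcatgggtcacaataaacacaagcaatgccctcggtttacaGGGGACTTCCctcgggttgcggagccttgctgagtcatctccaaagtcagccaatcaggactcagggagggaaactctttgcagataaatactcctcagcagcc
Cxcl9: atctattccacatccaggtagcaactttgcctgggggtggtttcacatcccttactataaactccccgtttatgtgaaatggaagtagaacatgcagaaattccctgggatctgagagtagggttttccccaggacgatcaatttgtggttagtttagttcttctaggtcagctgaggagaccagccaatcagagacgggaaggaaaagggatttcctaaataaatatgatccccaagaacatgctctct
The kB form was matched 3 times before Cxcl1, 3 times before Cxcl2 and 2 times before Cxcl10, with 0 matches before Cxcl9. It occurs in 4.65% of 32851 RefSeq windows of the same length. In both Cxcl1 and Cxcl2 one stretch was matched on the plus strand as GGGAATTTCC and on the minus strand as the overlapping GGAATTTCCC. The interferon core was matched 1 time before Cxcl10, as GAAAGTGAAA, and 1 time before Cxcl14, and occurs in 2.98% of windows. The interferon-gamma form TTCNNNGAA was matched only before Cxcl14 among the 8 promoters (1 match, 7.02% of windows). A match describes the letters in this window and not a bound site.

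Library totals ran from 5.14 to 9.72 M estimated counts (median 7.19 M). A gene without a count could lie anywhere under a floor of 3 counts, which equals 0.309 to 0.584 CPM (counts scaled to the library total), a limit on counting error alone. Genes that define alveolar type 2 cells summed to between 27700 and 37900 CPM in every library, so the labelled tissue was present throughout. The summed level of 7 muscle and brown fat genes reached 1314 CPM in sham day 1 replicate 2. It was 998 CPM in carbon black day 4 replicate 3 and 740 CPM in co-exposure day 4 replicate 3. The summed level of neutrophil genes in carbon black day 1 replicate 2 was 232 CPM, within the day 1 sham range of 205 to 338 CPM. A homogenate averages over all cells, so fewer cells of a type and less RNA per cell cannot be told apart.

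Levels between genes are compared as CPM per kb of merged exon, retained introns of annotated transcripts included. Cxcl15, also called lungkine and produced by lung epithelium, stood at 936 ± 127 CPM per kb in the sham libraries (SD, n = 7). Cxcl14 followed at 49.6 ± 9.73, Cxcl12 at 37.6 ± 7.77 and Cxcl16 at 27.1 ± 2.34 CPM per kb. Cxcl13 had a mean of 16.0 CPM per kb and ran from 1.07 to 41.4. The inducible genes had far lower means: Cxcl10 at 0.87 ± 0.244, Cxcl9 at 0.376 ± 0.338, Cxcl1 at 0.355 ± 0.183, Cxcl5 at 0.197 ± 0.153 and Cxcl2 at 0.115 ± 0.0801 CPM per kb. Cxcl14 and Cxcl12 overlapped in range, and so did Cxcl12 with Cxcl16 and each of Cxcl10, Cxcl9, Cxcl1 and Cxcl5 with the next. The wide range of Cxcl13 overlapped those of Cxcl14, Cxcl12 and Cxcl16, and at its low end that of Cxcl10 (0.614 to 1.24). No library of Cxcl15 came near those of another member.

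**Figure D1:**
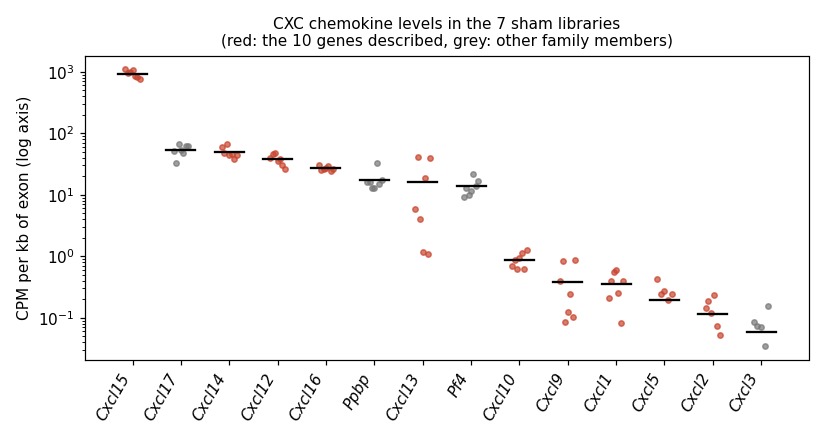
Level of each CXC chemokine in the 7 sham libraries (points; CPM per kb of merged exon on a log axis) with the mean (line). Red points are the 10 genes described and grey points other family members; libraries at 0 cannot be drawn on a log axis, and Cxcl11 is at 0 in all of them. Cxcl15 stands at a mean of 936 and Cxcl2 at 0.115.

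Differences were tested for 8 of the 10 genes. Cxcl1 and Cxcl2 fell below the low-count filter. Against a total of 14887 tested genes, edgeR's quasi-likelihood test called none of the 8 after carbon black at day 1 (1.66% of all genes were called) or day 4 (0.208%). After ozone it called 0 of 8 at day 1 (11.4% of all genes) and 1 of 8 at day 4, Cxcl16, which rose (20.7% of all genes). After co-exposure it called 2 of 8 at day 1 (19.2% of all genes) and 4 of 8 at day 4 (34.1% of all genes). Cxcl5 rose and Cxcl12 fell at day 1. Cxcl5, Cxcl10 and Cxcl16 rose and Cxcl14 fell at day 4. These shares are close to the backgrounds, so the number called is not in itself a result about chemokines.

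For the counts of 0, an unadjusted p under 0.05 was found for 1 gene after carbon black at day 1 (Cxcl14), 2 at day 4 (Cxcl5, Cxcl10), and 3 after ozone at day 1 (Cxcl5, Cxcl12, Cxcl15). In these comparisons limma-voom called 0, 0 and 1 gene and DESeq2 called 1, 0 and 1, but for carbon black at day 4 DESeq2 gave no adjusted p for Cxcl5, Cxcl9 and Cxcl10. The median log2 fold change of the 8 genes lay between -0.12 and 0.31 in the 6 comparisons with sham, where the median of all genes lay between -0.01 and 0.01.

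**Figure D2:**
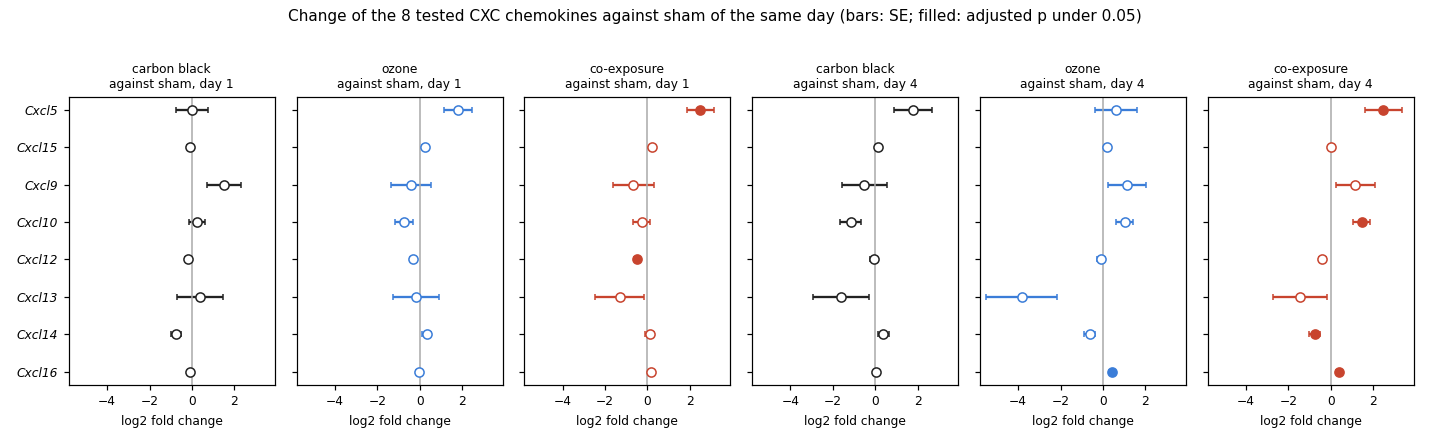
Log2 fold change of the 8 tested genes against sham of the same day (points) with the standard error (bars), a panel per exposure and day. Filled points have an adjusted p under 0.05 in edgeR. Cxcl5 is filled in both co-exposure panels (2.50 at day 1 and 2.47 at day 4) and Cxcl16 in the day 4 ozone and co-exposure panels.

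Among the neutrophil attractants, Cxcl1 (keratinocyte chemoattractant) and Cxcl2 (macrophage inflammatory protein 2) were too low to pass the filter. Cxcl1 had 151 counts in all 28 libraries together, 1 to 10 in each, and Cxcl2 had 75, 0 to 8 in each. The group means of Cxcl1 ran from 0.462 CPM in sham at day 4 to 1.16 CPM in co-exposure at day 4. Those of Cxcl2 ran from 0.227 CPM in carbon black at day 4 to 0.617 CPM in carbon black at day 1. Without the low-count filter (24077 genes), edgeR called neither gene in any of 14 comparisons. The smallest adjusted p there was 0.193, for Cxcl1 in co-exposure at day 4 (log2 fold change 1.23 ± 0.64 SE). All 3 co-exposure libraries of Cxcl1 at day 4 (0.994 to 1.33 CPM, 7 to 10 counts) lay above all sham libraries (0.154 to 0.752 CPM) and all ozone libraries (0.426 to 0.790 CPM) of that day. Such separations were seen for 20.7% and 9.57% of all tested genes. Their paralog Cxcl3 was also low, and the reads of these near-identical genes may have been divided between them by estimate.

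**Figure D3:**
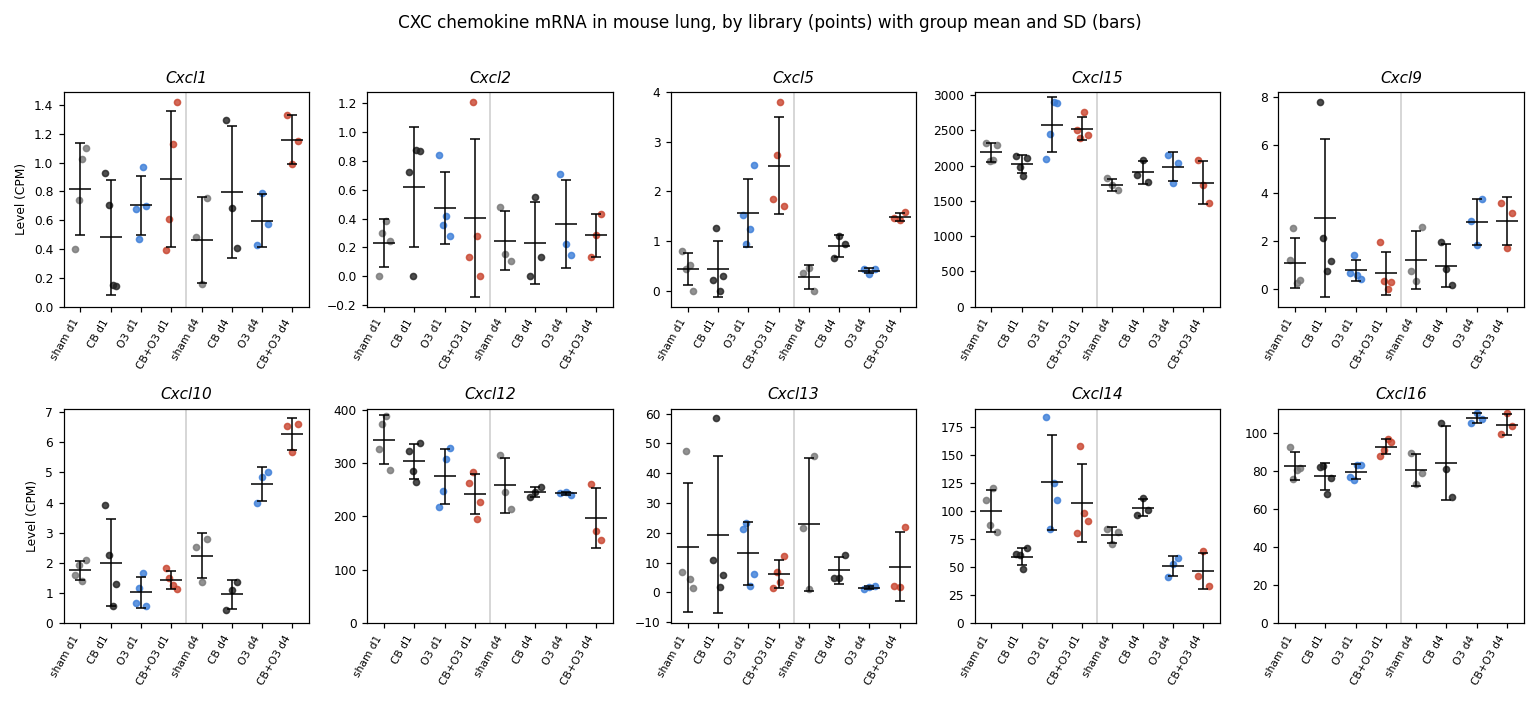
CPM of the 10 genes in each library (points), with the mean and SD of each group (bars). Day 1 groups are left of the grey line and day 4 groups right of it; each panel has its own linear axis. Cxcl10 stands at 4.62 and 6.28 CPM in the day 4 ozone and co-exposure groups against 2.23 CPM in sham of that day.

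Cxcl5, an epithelial neutrophil attractant (LIX), was higher after co-exposure on both days, from a very low level. At day 1 the sham libraries held 0.794, 0.445, 0.512 and 0 CPM (0 to 6 counts). The co-exposure libraries held 1.84, 2.73, 3.81 and 1.71 CPM (12 to 27 counts). Every co-exposure library thus stood above every sham library, a separation seen for 12% of all genes. The log2 fold change was 2.50 ± 0.65 (SE, adjusted p = 0.00485, edgeR), and it passed the threshold with any 1 of the 8 libraries left out (adjusted p 0.0059 to 0.0262). Ozone at day 1 gave 1.52, 0.944, 1.25 and 2.52 CPM, also all above sham, but the difference of 1.80 ± 0.67 on the log2 scale missed the threshold (adjusted p = 0.0639). It passed in DESeq2 (0.0312) and in limma-voom (0.0409). In edgeR it did not pass with any 1 of the 8 libraries left out (0.0554 to 0.232).

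At day 4 Cxcl5 stood at 0.361, 0.461 and 0 CPM in sham and at 1.47, 1.42 and 1.58 CPM after co-exposure. The groups did not overlap, as for 20.7% of all genes upward, and the log2 fold change was 2.47 ± 0.87 (adjusted p = 0.0168, edgeR). The summed level of neutrophil genes was also higher in these co-exposure libraries (642 to 1286 CPM against 125 to 186 CPM in sham). By gene, 2 of 12 tested neutrophil genes were called higher, where 34.1% of all genes were called in either direction. The mean log2 CPM of the 12 genes ran from 2.98 to 3.52 in these co-exposure libraries and from 1.83 to 2.26 in sham. The part of neutrophil RNA in the Cxcl5 values was not tested. Without sham replicate 3, which held no count, the log2 fold change of Cxcl5 was 1.83 with an adjusted p of 0.093. Ozone alone at day 4 gave Cxcl5 values of 0.426, 0.339 and 0.431 CPM, 3 counts in each library, inside the sham range. The 3 co-exposure libraries lay above the 3 ozone libraries. The log2 difference of 1.87 ± 0.79 had an unadjusted p of 0.0182 and an adjusted p of 0.168, and 9.57% of all genes showed the same complete separation upward. Carbon black at day 4 gave 0.649, 1.09 and 0.946 CPM, above all 3 sham libraries as for 7.93% of all genes, with a log2 fold change of 1.78 ± 0.91 that did not pass (adjusted p = 0.316). At day 1 carbon black ranged from 0 to 1.27 CPM and overlapped sham.

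Cxcl15 was the most abundant member in every group and its level moved little. At day 1 the sham libraries held 2319, 2062, 2076 and 2293 CPM, the ozone libraries 2095, 2445, 2898 and 2888 CPM, and the co-exposure libraries 2499, 2397, 2753 and 2434 CPM. All co-exposure libraries exceeded all sham libraries, as for 12% of all genes, but the log2 fold change was only 0.21 ± 0.11 (adjusted p = 0.197). That for ozone was 0.24 ± 0.11 (adjusted p = 0.164). At day 4 the means were 1727 ± 84.8 CPM in sham, 1905 ± 162 in carbon black, 1981 ± 206 in ozone and 1756 ± 303 in co-exposure (SD, n = 3 each), with no call. The sham libraries of day 4 all lay below those of day 1, by -0.34 ± 0.12 on the log2 scale. That separation downward was shared by 6.68% of all genes and had an adjusted p of 0.502. A microRNA model overlaps Cxcl15 on the opposite strand over 70 bp.

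Cxcl10 (IP-10) was low in sham and differed most clearly at day 4. The day 4 sham libraries held 2.53, 1.38 and 2.79 CPM (9 to 26 counts), and the co-exposure libraries 6.54, 5.68 and 6.62 CPM (40 to 49 counts). The groups were apart, as for 20.7% of all genes upward, and the log2 fold change was 1.46 ± 0.40 (adjusted p = 0.00619, edgeR). It passed with any 1 of the 6 libraries left out (0.0113 to 0.0401). Ozone at day 4 gave 3.98, 4.85 and 5.03 CPM, above all sham libraries as for 22.5% of all genes, with a log2 fold change of 1.02 ± 0.41 that did not pass (adjusted p = 0.0739). It passed in limma-voom (0.035) and with only these 2 groups in the fit (0.0208). In edgeR it did not pass with any 1 of the 6 libraries left out (0.0932 to 0.257). Carbon black at day 4 lay on the other side, at 0.433, 1.09 and 1.35 CPM, below every sham library, as for 7.67% of all genes (log2 fold change -1.16 ± 0.49, adjusted p = 0.244).

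At day 1 Cxcl10 did not show this rise. The sham libraries held 1.59, 1.93, 1.41 and 2.09 CPM and the co-exposure libraries 1.84, 1.52, 1.27 and 1.14 CPM, which overlapped (log2 fold change -0.28 ± 0.41, adjusted p = 0.686). Ozone at day 1 had a mean of 1.02 ± 0.505 CPM (SD, n = 4) and a log2 fold change of -0.75 ± 0.42 (adjusted p = 0.265). Carbon black at day 1 was spread from 0.586 to 3.91 CPM. The response to co-exposure differed between the days by 1.74 ± 0.57 on the log2 scale (adjusted p = 0.0492, edgeR), the 1 call among 8 members for that difference (10.2% of all genes). This call is at the edge of the threshold: leaving out 1 of the 14 libraries gave adjusted p values from 0.0471 to 0.127, under the threshold in 1 case, without co-exposure day 1 replicate 1. It was also lost without the low-count filter (0.0674). The same difference for ozone was 1.78 ± 0.59 (adjusted p = 0.0836). Both use the same sham libraries. Cxcl10 lies entirely within Art3 on the opposite strand (2252 bp). The library kit keeps strand, but the sources used here do not say whether the counting used it. Art3 fell at day 4, by 1.32 on the log2 scale after ozone and by 0.95 after co-exposure (adjusted p = 0.000615 and 0.00534), opposite in direction to Cxcl10.

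Cxcl9 (MIG), the neighbour of Cxcl10, gave no call in any comparison with sham. Its day 4 libraries held 0.722, 0.307 and 2.58 CPM in sham, 2.84, 1.81 and 3.74 CPM in ozone, and 3.603, 1.704 and 3.167 CPM in co-exposure. The groups overlapped because sham replicate 3 stood inside the exposed range. The log2 fold changes were 1.13 ± 0.91 for ozone (adjusted p = 0.404) and 1.16 ± 0.91 for co-exposure (adjusted p = 0.339). At day 1 the carbon black libraries held 7.83, 2.11, 0.733 and 1.16 CPM. The first of these, the highest Cxcl9 value of all 28 libraries, also had the highest Cxcl10 value of its group, 3.91 CPM. Across the 28 libraries the log2 CPM of Cxcl9 and Cxcl10 had a Pearson correlation of 0.55, as a description, with exposure, depth and library shared by both.

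A list of 18 interferon-responsive genes was tested in full. At day 4 of co-exposure 7 fell and 1 rose (34.1% of all genes were called, either way), with a median log2 fold change of -0.30, against 0.003 over all genes. At day 1 of co-exposure 11 fell and 1 rose (19.2% of all genes were called), with a median of -0.55. After ozone 10 fell and 1 rose at day 1 (11.4% of all genes), and 4 fell and 1 rose at day 4 (20.7%). Gbp2, a guanylate-binding protein gene induced by interferon, fell by 0.83 on the log2 scale at day 4 of co-exposure (SE 0.16, adjusted p = 0.000249), and Gbp3 fell by 0.87 (SE 0.21, adjusted p = 0.00223). Ifng itself had 0 to 2 counts in each library. T and NK cell genes were lower in the same groups: 12 of 12 fell at day 1 of co-exposure (19.2% of all genes were called) and 9 of 12 at day 4 (34.1%). Their summed level was 72.3 to 81.9 CPM in day 4 sham and 27.9 to 37.2 CPM in day 4 co-exposure, and their part in the interferon list's values was not tested.

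Of 12 feedback targets of NF-kB, the factor whose motif precedes Cxcl1, Cxcl2 and Cxcl10, 2 rose and 2 fell at day 4 of co-exposure, a share close to the 34.1% of all genes called there. Tnip3, which encodes an inhibitor of NF-kB signalling, rose by 3.39 ± 0.22 on the log2 scale (adjusted p = 1.42e-11). Bcl3, an NF-kB cofactor gene, rose by 0.62 ± 0.17 (adjusted p = 0.00727). Nfkbia, the gene of the inhibitor IkB alpha, fell by 0.66 (SE 0.23, adjusted p = 0.0291), and Birc3 fell by 0.46 (SE 0.12, adjusted p = 0.00317). Of 11 tested upstream cytokines and receptors, 3 rose at day 4 of co-exposure (Il33, Tlr2, Il1b) and 1 fell (Ifngr1), again close to that share. Il1b, a cytokine that induces the neutrophil attractants, rose after carbon black at day 1 by 2.14 ± 0.48 (adjusted p = 0.0224). In that comparison 11 of 12 tested neutrophil genes also rose, where 1.66% of all genes were called. Il17a had 0 counts in every library, and Csf3 had 0 or 1.

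Cxcl12 (SDF-1), which retains leukocytes and progenitors through Cxcr4, was lower after co-exposure at day 1. The sham libraries held 327, 373, 388 and 287 CPM and the co-exposure libraries 262, 283, 196 and 228 CPM. The highest co-exposure library lay just under the lowest sham library, and 10.4% of all genes separated downward in this way. On the log2 scale it fell by 0.51 (SE 0.15, adjusted p = 0.019, edgeR). It missed the threshold without sham replicate 2 (0.0573) or 3 (0.0615), or without co-exposure replicate 3 (0.0904) or 4 (0.0532). Ozone at day 1 gave 218, 248, 308 and 328 CPM, which overlapped sham (log2 fold change -0.32 ± 0.15, adjusted p = 0.18), and carbon black gave 323, 286, 265 and 337 CPM.

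At day 4 Cxcl12 held 315, 245 and 214 CPM in sham and 260.4, 174 and 157 CPM in co-exposure, which overlapped. The log2 fold change was -0.39 ± 0.17 (adjusted p = 0.0866), and it passed without sham replicate 3 (-0.51, adjusted p = 0.0446) or without co-exposure replicate 1 (-0.63, adjusted p = 0.00598). Ozone at day 4 held 244, 245 and 239.7 CPM, within the sham range. Sham itself stood at 344 ± 45.7 CPM at day 1 and 258 ± 51.4 CPM at day 4 (SD, n = 4 and 3; log2 difference -0.41 ± 0.16, adjusted p = 0.502). Endothelial cells are a known source of Cxcl12. Of 10 endothelial genes, 5 fell at day 1 of co-exposure (19.2% of all genes were called) and 8 at day 4 (34.1%), with medians of -0.46 and -1.09 on the log2 scale. Their summed level in the day 4 co-exposure libraries was 2419, 1693 and 1314 CPM, in the same order as Cxcl12, and 3105 to 4155 CPM in day 4 sham. The lowest of these 3 libraries, replicate 3, also held 740 CPM of muscle and brown fat genes. The summed level of 12 fibroblast and pericyte genes was lower at day 1 of co-exposure too (2270 to 2760 CPM against 3390 to 3770 CPM in sham). At day 4 it overlapped sham (2490 to 4020 CPM against 2780 to 3660 CPM). The part of endothelial, fibroblast or neighbouring-tissue RNA in the Cxcl12 values was not tested.

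Cxcl13 (BLC) varied widely between libraries of both sham groups and of carbon black at day 1. It also ran from 2.08 to 23.1 CPM in ozone at day 1 and from 1.85 to 21.9 CPM in co-exposure at day 4. Over the 28 libraries its highest CPM was 51.5 times its lowest, and within the 7 sham libraries 38.7 times. The day 4 sham libraries held 21.5, 1.23 and 45.9 CPM and the day 4 ozone libraries 1.14, 1.69 and 2.01 CPM. The low sham library stood inside the ozone range, and the log2 fold change of -3.83 ± 1.66 did not pass in edgeR (adjusted p = 0.0894) or limma-voom (0.296) but did in DESeq2 (0.0151). Day 1 sham held 6.75, 47.6, 4.61 and 1.35 CPM, and no comparison with sham gave a call. The highest libraries were carbon black day 1 replicate 2 (58.5 CPM), sham day 1 replicate 2 (47.6 CPM) and sham day 4 replicate 3 (45.9 CPM). The same 3 libraries had the highest mean log2 CPM of 10 B and plasma cell genes, at 4.58, 5.23 and 5.05. Below them the orders often differed. Ozone day 1 replicate 2 ranked 4 for Cxcl13 and 15 for the B cell list, and sham day 4 replicate 2 ranked 27 and 8. Sham day 4 replicate 1 ranked 6 and 5. Sham day 1 replicate 2 was also the library highest in muscle and brown fat genes. The part of lymphoid or neighbouring tissue in these values was not tested.

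**Figure D4:**
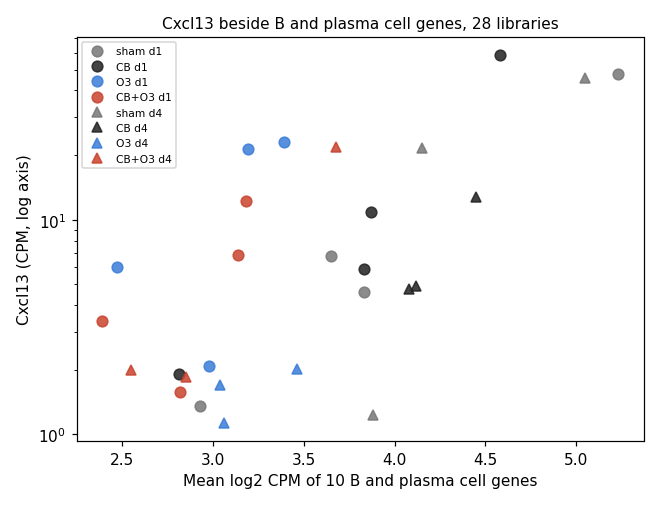
Cxcl13 (CPM, log axis) against the mean log2 CPM of 10 B and plasma cell genes in the 28 libraries, coloured by exposure (circles day 1, triangles day 4). The 3 libraries with the most Cxcl13 (45.9 to 58.5 CPM) lie at the right, at 4.58 to 5.23.

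Cxcl14 (BRAK), a chemokine of epithelium and stroma, was lower at day 4 of co-exposure. The day 4 sham libraries held 83.8, 70.7 and 81.3 CPM and the co-exposure libraries 41.9, 64.0 and 33.1 CPM, with no overlap. The fall on the log2 scale was -0.76 ± 0.26 (adjusted p = 0.027, edgeR). The call was lost without sham replicate 1 (adjusted p = 0.0728) or 3 (0.0629) and without co-exposure replicate 1 (0.0859) or 3 (0.143). Co-exposure replicate 3, the lowest in Cxcl14, held 740 CPM of muscle and brown fat genes, against 73.4 and 174 CPM in replicates 1 and 2. The part of neighbouring tissue in its value was not tested. Ozone at day 4 gave 41.3, 53.2 and 58.2 CPM, also below all sham libraries, with a log2 fold change of -0.63 ± 0.26 that did not pass (adjusted p = 0.0906) except with only these 2 groups in the fit (0.00192). A complete separation downward was seen for 19.5% of all genes after co-exposure and 20.6% after ozone at day 4.

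Carbon black at day 1 gave Cxcl14 values of 61.4, 61.0, 48.7 and 66.6 CPM, below the sham values of 109, 87.8, 121 and 81.0 CPM without overlap, as for 3.58% of all genes. The log2 fold change was -0.75 ± 0.22 and did not pass in edgeR (adjusted p = 0.115) but did in DESeq2 (0.031). In edgeR it did not pass with any 1 of the 8 libraries left out (0.105 to 0.399). At day 4 the carbon black libraries stood above sham instead, at 96.5, 111 and 101 CPM, as for 7.93% of all genes (log2 fold change 0.39 ± 0.26, adjusted p = 0.475). The difference between the days, 1.14 ± 0.34, had an unadjusted p of 0.00276 and an adjusted p of 0.354. At day 1 ozone gave 184, 83.9, 125 and 110.1 CPM and overlapped sham. Of 12 fibroblast and pericyte genes, 5 fell and 2 rose at day 4 of co-exposure, where 34.1% of all genes were called. Tcf21, a lipofibroblast factor, stood at -0.99 ± 0.19 and the collagen gene Col1a1 at 1.30 ± 0.22 on the log2 scale. The part of fibroblast and pericyte RNA in the Cxcl14 values was not tested.

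Cxcl16 was the steadiest member, with its highest library 1.66 times its lowest, and rose at day 4 after both exposures that contained ozone. The day 4 libraries held 89.7, 73.3 and 78.9 CPM in sham, 105, 111 and 108 CPM in ozone, and 99.4, 110.3 and 104 CPM in co-exposure. All 6 exposed libraries exceeded all 3 sham libraries, where 22.5% of all genes after ozone and 20.7% after co-exposure separated upward. The log2 fold changes were 0.42 ± 0.11 for ozone (adjusted p = 0.00949) and 0.37 ± 0.11 for co-exposure (adjusted p = 0.0131). Both comparisons share the sham libraries. Without sham replicate 2, the lowest, neither passed (0.065 and 0.0673), and the co-exposure call was also lost without co-exposure replicate 2 (0.0548) and with only these 2 groups in the fit (0.0577). At day 1 Cxcl16 stood at 82.7 ± 7.16 CPM in sham, 79.7 ± 3.91 in ozone and 92.8 ± 3.98 in co-exposure (SD, n = 4 each), with no call. The 4 co-exposure libraries lay above the 4 ozone libraries at day 1, as for 5.13% of all genes (log2 difference 0.22 ± 0.10, adjusted p = 0.291).

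Cxcl16 overlaps Zmynd15 on the opposite strand over 552 bp. Zmynd15 stood at 7.44 CPM in day 4 sham, 7.71 CPM in day 4 ozone and 5.17 CPM in day 4 co-exposure. It was called in neither comparison (adjusted p = 0.902 and 0.133, edgeR). Adam10, the protease that sheds Cxcl16 from the cell surface, rose at day 4 by 0.62 ± 0.12 after ozone (adjusted p = 0.000525) and by 0.56 ± 0.12 after co-exposure (adjusted p = 0.000901). Of 7 tested genes for proteases that cut or release chemokines, 4 rose after ozone at day 4 (Adam10, Adam17, Mmp2, Mmp12), and 3 rose and 1 fell (Dpp4) after co-exposure. Of all genes, 20.7% and 34.1% were called in these comparisons. Mmp12, the macrophage elastase gene, rose by 1.91 ± 0.32 after ozone. Of 14 macrophage and monocyte genes, 5 rose at day 4 of ozone, where 20.7% of all genes were called. The summed level of the 14 genes at day 4 was 1470 to 1800 CPM after ozone, 908 to 2000 CPM after co-exposure and 720 to 903 CPM in sham. Their part in the Cxcl16 values was not tested.

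Between co-exposure and ozone alone edgeR called none of the 8 genes at day 1 or day 4 (0% of all genes on either day). The unadjusted p was under 0.05 for 1 gene on each day, Cxcl16 at day 1 and Cxcl5 at day 4, and for 2337 and 2991 of all genes. limma-voom also called none of the 8 on either day. DESeq2 called none of 8 at day 1 and none of 5 at day 4, where it gave no adjusted p for Cxcl5, Cxcl9 and Cxcl10. At day 4 the co-exposure libraries of Cxcl5 and Cxcl10 lay above all ozone libraries, with log2 differences of 1.87 ± 0.79 and 0.44 ± 0.38. The interaction of the exposures, the departure of co-exposure from the sum of both single log2 changes, called 0 of 8 at day 1 (1.46% of all genes) and 0 of 8 at day 4 (1.37%). Its smallest member p was that of Cxcl10 at day 4, where the estimate was 1.60 ± 0.62 (unadjusted p = 0.0147, adjusted p = 0.122). An unadjusted p under 0.05 was found for 1 member at each day, Cxcl16 at day 1 and Cxcl10 at day 4, and limma-voom called none. DESeq2 called none of the members it gave an adjusted p, which were 6 at day 1 (without Cxcl5 and Cxcl9) and 5 at day 4 (without Cxcl5, Cxcl9 and Cxcl10). The change of the response between the days called 0 of 8 for carbon black (0.094% of all genes) and 0 of 8 for ozone (4.24%), with 2 and 3 members at an unadjusted p under 0.05. DESeq2 called 0 and 1, the latter Cxcl16 (adjusted p = 0.0439), and limma-voom called none. Between the sham groups edgeR called 0 of 8 (0% of all genes), with 2 members (Cxcl12, Cxcl15) and 1473 genes at an unadjusted p under 0.05, and DESeq2 and limma-voom called no member.

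Across the 28 libraries the members did not move as a block. The largest Pearson correlations between log2 CPM values of members were -0.65 for Cxcl10 with Cxcl14, -0.57 for Cxcl9 with Cxcl14, 0.55 for Cxcl9 with Cxcl10 and 0.53 for Cxcl10 with Cxcl16. These are descriptions over libraries that share exposures and depth. The genes most like each member in log2 CPM, among 11864 named protein-coding candidates, were Uchl1 for Cxcl5 (r = 0.76), Slc37a2 for Cxcl9 (0.74), Ociad2 for Cxcl10 (0.86), Dusp3 for Cxcl12 (0.86), Mmp3 for Cxcl14 (0.83), Tspan11 for Cxcl15 (0.84) and Nuf2 for Cxcl16 (0.86). For Cxcl13 they were Fcna (0.91), Jchain, the joining chain of secreted immunoglobulins (0.89), and Cd163, a macrophage receptor (0.77).

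Of 5 other listed CXC chemokines, 3 were tested. Cxcl17, an airway mucosal chemokine, rose after ozone and co-exposure on both days. It stood at 39.3, 25.1, 50.4 and 40.3 CPM in day 1 sham and at 96.1, 74.7, 115 and 120.5 CPM in day 1 co-exposure, without overlap, as for 12% of all genes. The log2 fold changes were 0.99 ± 0.19 for ozone and 1.39 ± 0.19 for co-exposure at day 1 (adjusted p = 0.000983 and 1.53e-05), and 0.79 ± 0.21 and 1.45 ± 0.21 at day 4 (0.0103 and 1.25e-05). The platelet chemokine gene Ppbp rose after carbon black at day 1 (1.53 ± 0.25, adjusted p = 0.00203) and fell by 1.44 after ozone and by 1.08 after co-exposure at day 4 (adjusted p = 0.00145 and 0.00706). Pf4, platelet factor 4, fell by 0.99 after ozone at day 4 (adjusted p = 0.0217). Of 6 platelet genes, both included, 4 rose after carbon black at day 1 (1.66% of all genes were called) and 5 fell after ozone at day 4 (20.7%). The sum of 7 erythrocyte genes was 5850 to 20500 CPM after carbon black at day 1, overlapping sham (6140 to 8230 CPM). At day 4 it was 3170 to 5730 CPM after ozone, 2490 to 4240 CPM after co-exposure and 7050 to 19500 CPM in sham. The part of platelet or blood RNA in the Ppbp and Pf4 values was not tested. Cxcl11 had 5 counts in all and 0 in sham. Cxcl3 had 122 counts in all: 0, 2, 2 and 2 in day 1 sham and 7, 9, 6 and 16 in day 1 ozone. In the fit without the low-count filter its log2 fold change for ozone at day 1 was 2.64 ± 0.76 (adjusted p = 0.0175, edgeR), the 1 of 14 comparisons past the threshold.

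The receptors were measured on the same libraries, and 7 of 8 were tested. Cxcr2, the main receptor of the neutrophil attractants, stood at 3.44, 18.1, 5.89 and 5.89 CPM in day 1 sham and at 58.0, 6.62, 170 and 107 CPM after carbon black. Replicate 2 of carbon black lay within the sham range. Its log2 fold change was 3.37 ± 0.60 (adjusted p = 0.00588). Cxcr1 rose after carbon black by 2.47 ± 0.46 at day 1 and 4.20 ± 0.67 at day 4 (adjusted p = 0.00305 and 0.000683), and at day 4 also after ozone (2.37 ± 0.69) and co-exposure (2.14 ± 0.70). Its day 4 sham libraries held 6 counts together (0.107 to 0.361 CPM), at or near the floor. The size of its day 4 changes therefore rests on few counts. Day 1 sham ran from 0.397 to 0.897 CPM. Cxcr1 and Cxcr2 are both found on neutrophils. Of 12 tested neutrophil genes, 11, Cxcr2 among them, rose after carbon black at day 1 (1.66% of all genes were called). The carbon black means at day 1 and day 4 were 85.2 and 20.8 CPM for Cxcr2. They were 2150 and 436 CPM for the summed neutrophil genes. Cxcr1 did not follow them, with means of 3.59 and 4.80 CPM. At day 4 of co-exposure 2 of the 12 neutrophil genes rose (34.1% of all genes were called, either way). The summed level of the neutrophil genes was 642, 852 and 1286 CPM there against 125 to 186 CPM in sham.

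Cxcr4, the receptor of Cxcl12, fell at day 1 by 0.71 after ozone and by 0.57 after co-exposure (SE 0.13 each, adjusted p = 0.000787 and 0.00328). Cxcr5, the receptor of Cxcl13 on B cells, fell by 1.44 after ozone and by 1.86 after co-exposure at day 1 (adjusted p = 0.00152 and 9.47e-05), and by 1.48 after co-exposure at day 4 (adjusted p = 0.00125). B and plasma cell genes moved with it, with 7 of 10 lower at day 1 (19.2% of all genes were called) and 8 of 10 at day 4 of co-exposure (34.1%). Cxcr3, the receptor of Cxcl9 and Cxcl10, Cxcr6, the receptor of Cxcl16, and the scavenger Ackr3 were not called in a comparison with sham. Cxcr3 was low, and at day 4 its sham libraries held 1.08 to 1.72 CPM. Its ozone libraries (0.287 to 0.903 CPM) and co-exposure libraries (0.568 to 1.07 CPM) all lay below these. Such separations downward were seen for 20.6% and 19.5% of all genes. Ackr1 was too low to be tested. The part of cell numbers in the receptor values was not tested.

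**Figure D5:**
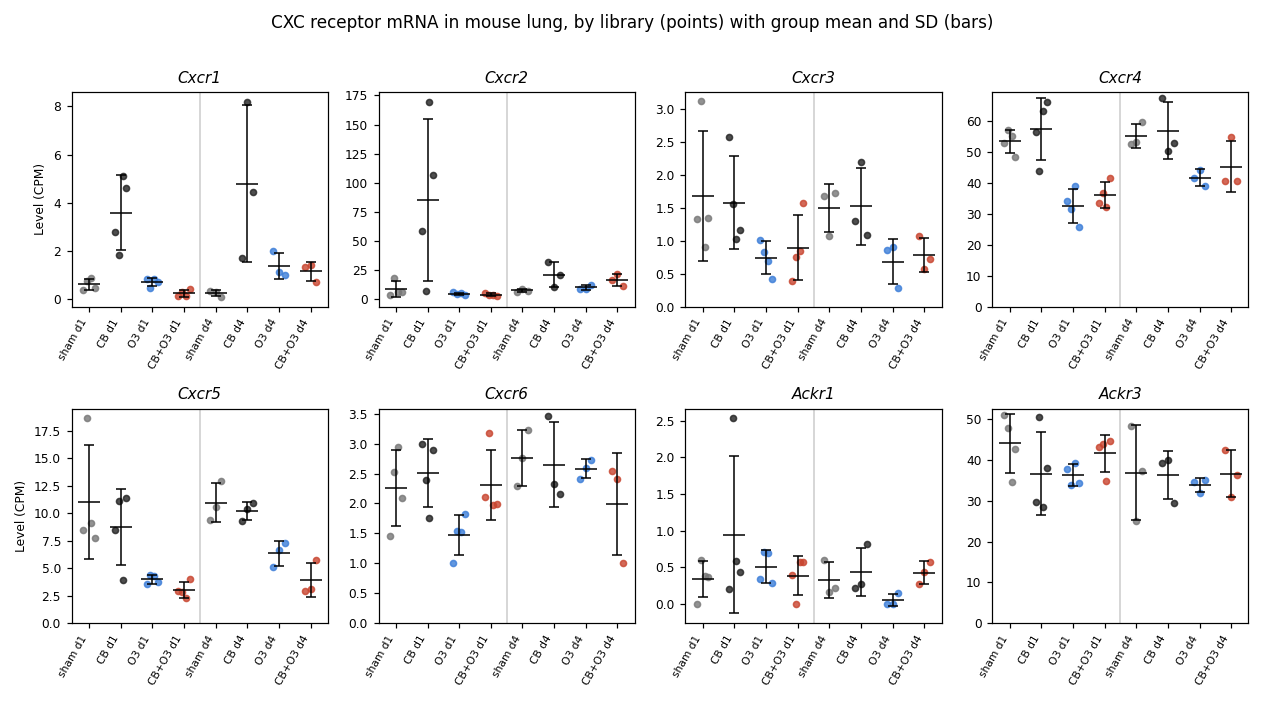
CPM of the 8 CXC receptors in each library (points), with the mean and SD of each group (bars), day 1 left and day 4 right of the grey line. Cxcr2 reaches 170 CPM in carbon black at day 1 with replicate 2 at 6.62 CPM, and Cxcr5 is lower in the day 1 ozone and co-exposure libraries than in sham.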

How the data were processed

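Polyadenylated RNA of whole lung was sequenced in 28 libraries with a stranded kit, per the labels' protocols. The authors deposited 1 table of estimated counts per gene. Salmon 1.1.0, R 3.6.3, DESeq2 and the build mm10 are named in the submitters' processing notes. The strand setting was not given in the sources used here. Estimates that are not whole (17.7% of values) were rounded. Genes with low counts were removed with filterByExpr, leaving 14887 genes and 99.9% of counts. Libraries were scaled by TMM (factors 0.902 to 1.05). Means of the 8 groups were fitted with edgeR 4.0.16 (R 4.3.3) by the robust quasi-likelihood F test. P-values were adjusted by Benjamini-Hochberg over all tested genes in each of 14 comparisons, with a threshold of 0.05. Standard errors are Wald errors on the log2 scale. The fit was tested on simulated data.

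CPM is the count scaled to the TMM-adjusted library total, and CPM per kb divides it by merged exon length. The alternatives were RLE scaling, no low-count filter, a stricter filter (minimum count 30), DESeq2 1.42.0, limma-voom (limma 3.58.1), a fit of only the groups compared, a replicate block, and leaving out each library. The genes, lists and tests were chosen with earlier results of these data known. The text names all 10 members, and other genes from the lists of receptors, other CXC chemokines, regulators, proteases and cell type markers. The genes most like a member were ranked by Pearson's r of log2 CPM (prior count 0.5). Promoter sequences are from RefSeq. Protein sequences were not used here.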

Additional observations from a re-analysis of the deposited data

Results flagged for a closer look

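The response of Cxcl10 to co-exposure differed between the days, by 1.74 on the log2 scale (adjusted p = 0.0492, edgeR's test of the difference itself), a call that does not hold firmly. The log2 fold change against sham was -0.28 at day 1 and 1.46 at day 4. The call held in 1 of 14 fits that each left out 1 library, and it was lost without the low-count filter (0.0674).

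In 3 of the 32 groups of 4 libraries examined, 4 groups for each of the 8 tested genes, the highest library stood apart from the others on the CPM scale by Dixon's criterion, and in 0 on the log2 scale. These were Cxcl13 in sham day 1 replicate 2 (47.6 CPM), Cxcl13 in carbon black day 1 replicate 2 (58.5 CPM) and Cxcl9 in co-exposure day 1 replicate 1 (1.97 CPM). Chance flags about 1 in 20 groups.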

How the results depend on the processing

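Of the fold changes of the 8 genes under all alternatives, 1751 stayed on their side of the threshold, 28 lost a call and 14 gained one. Of those called in the main fit, 0 reversed in direction. Changes of sign were not counted for fold changes without a call, and some occurred. For Cxcl13 in carbon black at day 1, leaving out 1 library gave log2 fold changes from -1.215 to 2.188. The number of members called moved as follows. Without the low-count filter 0 was called for the change of the co-exposure response (Cxcl10 1.73, adjusted p 0.0674), as with a replicate block (0, Cxcl10 1.77, 0.0542). With the stricter filter 1 was called for co-exposure at day 1, since Cxcl5 was not tested. DESeq2 called 1 for carbon black at day 1, 1 for ozone at day 1, 2 for ozone at day 4 and 1 for the change of the ozone response. limma-voom called 1 for ozone at day 1 and 2 for ozone at day 4 (Cxcl10 added). Fitting only the groups compared called 3 for ozone at day 4 and 2 for the change of the ozone response (Cxcl10 and Cxcl16). For co-exposure at day 4 the stricter filter and fitting only the groups compared called 3. Leaving out 1 library gave 1 to 2 for co-exposure at day 1, 3 to 4 at day 4, 0 to 1 for ozone at day 4, 0 to 1 for the change of the co-exposure response, and 0 to 1 for co-exposure against ozone at day 4 (Cxcl12, without co-exposure replicate 1).

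Over all genes, the interaction at day 4 called 64 genes without the filter, 1028 in DESeq2, 0 with only the groups compared and 839 with the block. Co-exposure against ozone at day 4 called 28 with the stricter filter, 493 in DESeq2, 96 in limma-voom and 177 with the block, and at day 1 DESeq2 called 18. Carbon black at day 4 called 175 in DESeq2, 18 in limma-voom and 7 with only the groups compared, which also called 7 for carbon black at day 1. The interaction at day 1 called 543 in DESeq2 and 898 with only the groups compared. The change of the carbon black response called 41 and 2 in these. That of the ozone response called 1125 and co-exposure at day 4 called 3175 with only the groups compared. Leaving out 1 library gave 75 to 357 genes for carbon black at day 1, 8 to 653 at day 4, 904 to 1519 for ozone at day 1, 2109 to 2624 at day 4, 1771 to 2967 for co-exposure at day 1 and 3909 to 5401 at day 4. It gave 56 to 471 for the interaction at day 1, 0 to 2979 at day 4, 0 to 2769 for co-exposure against ozone at day 4, and 2 to 42, 365 to 624 and 1064 to 1735 for the changes of the carbon black, ozone and co-exposure responses. The cause of these moves was not tested.

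Replicate numbers did not pair the libraries: deviations of same-numbered libraries had a median correlation of 0.01 (-0.255 to 0.454, 90 pairs), and 10 of 28 libraries correlated best with their own number. Depth limits Cxcl1, Cxcl2, Cxcl5 and Cxcl9, and the receptor Cxcr1 in sham, where a library holds few counts. DESeq2 gave no adjusted p for 3 members in carbon black against sham, co-exposure against ozone and the interaction at day 4, for 2 in the interaction at day 1 and for 1 in the change of the co-exposure response.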
